A study of Homo sapiens with 4 samples.

Results

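The 46 genes described here encode the machinery that copies DNA and the factors that start S phase, from origin recognition to chromatin assembly behind the fork, with the E2F, cyclin E and CDC25A regulators of the G1/S step. They were taken by gene symbol from a list, and all 46 were among the 29286 genes with a value and among the 13303 genes tested. The series holds RNA sequencing of HCT116, a long-established line of human colorectal carcinoma cells, in 2 groups of 2 libraries. The shWDR43 cells carried a lentiviral short hairpin against WDR43, a nucleolar protein of the complex that assembles the small ribosomal subunit, and the shNC cells, shNC2 in the sample titles, carried a control hairpin. Both groups were infected for 48 h, placed under puromycin for 3 days and sampled as mixed populations in bulk. The labels name a single WDR43 hairpin condition, and do not say whether replicates were separate cultures, so p-values cover only library-to-library spread, which may be technical.

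In the G1 phase, the ORC complex with CDC6 and CDT1 loads the MCM2-7 helicase on origins, which is called licensing, and geminin blocks loading once S phase has begun. Cyclin E with CDK2, activated by the phosphatase CDC25A, drives the cell into S phase, where CDC45 and GINS turn the loaded helicase on and the polymerases, the PCNA clamp and its loader RFC follow. Many of these genes are known targets of the E2F transcription factors, which the RB family holds back in G1, and p21, the product of the p53 target CDKN1A, inhibits the cyclin E kinase.

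The level of WDR43 was not analysed here, so the knockdown was not checked against its target. The values are FPKM, a level per unit of transcript length and of mapped reads, a unit inferred from the values, and they summed to 393582 to 413758 per library. Read depth is unknown. Of 8 epithelial markers EPCAM, CDH1, KRT8, KRT18, KRT19 and CLDN4 were at 27.7 FPKM or more in every library, CDX2 was at 1.59 to 1.74 FPKM and VIL1 was at 0.0708 FPKM or less. The 8 summed to 2558 and 2527 FPKM in shWDR43 cells and 1773 and 2104 FPKM in shNC cells. KRT8, KRT18, KRT19 and CLDN4 were above both shNC values in both shWDR43 libraries, whereas EPCAM, CDH1 and CDX2 overlapped between groups, and the part of this difference in the results below was not tested. Of 10 markers of leukocytes, endothelium, fibroblasts, liver and muscle, 6 had a value used here and summed to 8.10 and 6.98 FPKM in shWDR43 cells and 9.11 and 8.53 FPKM in shNC cells, mostly from COL1A1, and COL3A1 was listed at 0 in shNC replicate 1. The endothelial genes PECAM1 and VWF were at 0.128 FPKM or less in every library. Of each library's total FPKM, mitochondrial genome transcripts took 24.6% and 23.9% in shWDR43 cells and 26.8% and 25.5% in shNC cells.

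Of the 46 replication and G1/S genes, 10 passed the test as higher in shWDR43 cells and 0 as lower, at an adjusted p below 0.05 in limma on log2(FPKM + 1). A positive log2 difference was measured for 42, which is 91.3% beside 58.0% of all tested genes. These 10 were CCNE1, CCNE2, CDC25A, E2F1, MCM2, MCM4, MCM6, PCNA, FEN1 and UHRF1. Over all tested genes, 4.79% were called higher and 1.47% lower, against 21.7% and 0 of the members. The median log2 difference was 0.30 for the members and 0.05 for all tested genes. Both shWDR43 values lay above both shNC values for 36 members, which is 78.3%, beside 35.8% of all tested genes, and below them for 1 member, ORC2, beside 21.5% of all tested genes. These are bulk values, in which a larger share of cells at G1/S and more transcript per cell cannot be told apart.

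**Figure D1:**
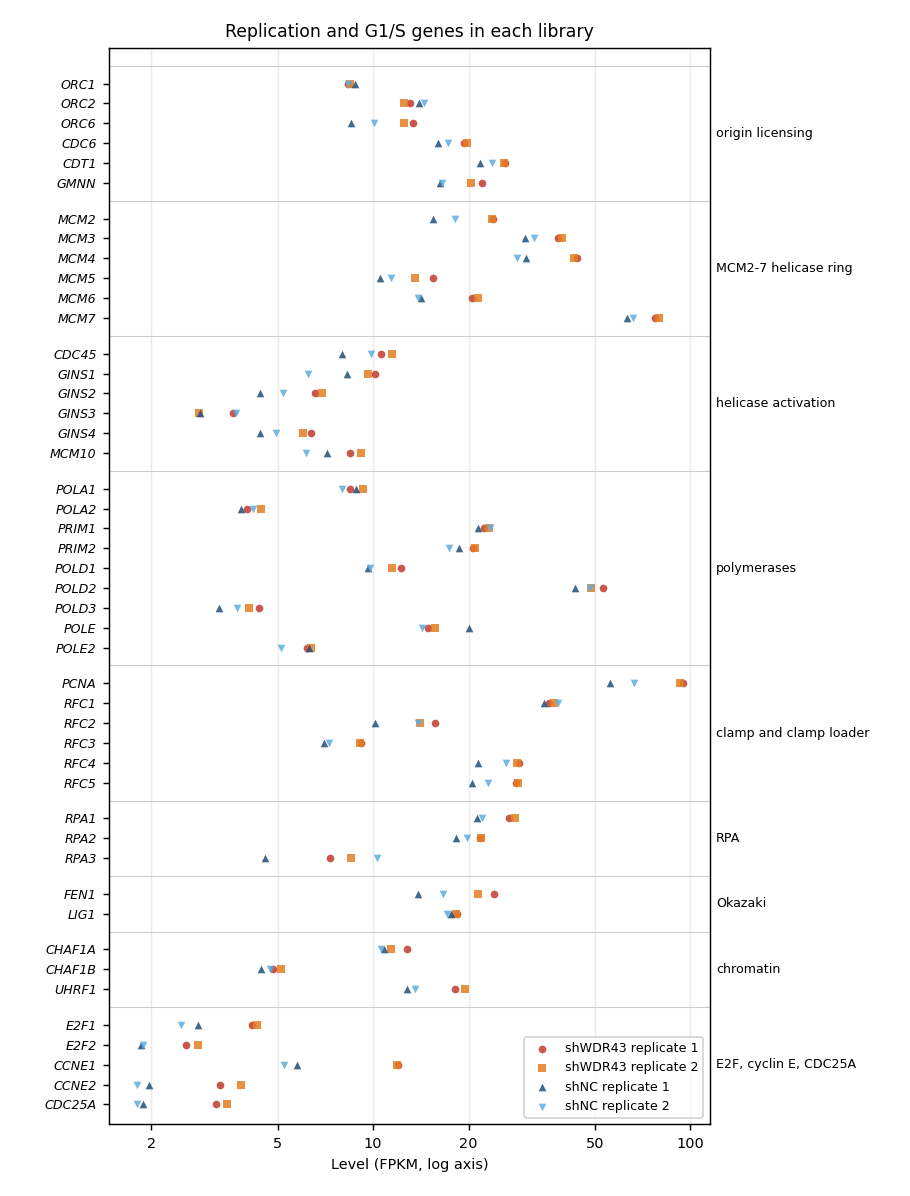
Level of each of the 46 genes in each library, in FPKM on a log axis, with a point per library and genes grouped by role. Both shWDR43 points lie to the right of both shNC points for 36 genes, and the widest gap is that of CCNE1, at 11.96 and 11.9 FPKM in shWDR43 cells and 5.75 and 5.24 FPKM in shNC cells.

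**Figure D2:**
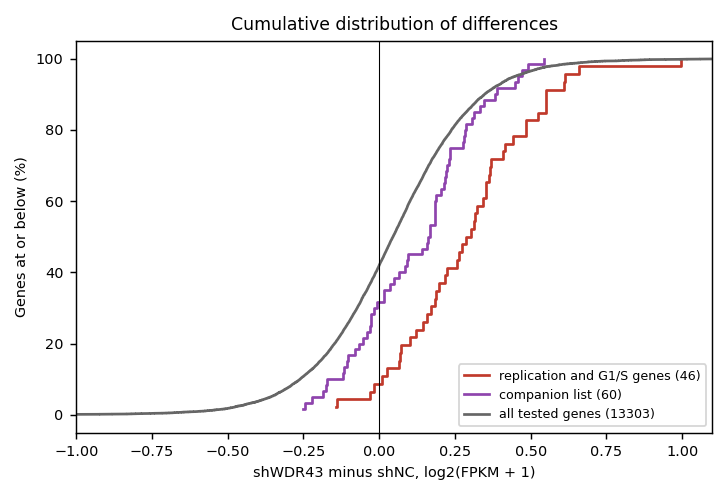
Share of genes, in percent, at or below each difference of mean log2(FPKM + 1), shWDR43 minus shNC, for the 46 members, a companion list of 60 other genes of replication and G1/S, and all 13303 tested genes. The members' curve lies to the right of the others over most of its range, with medians of 0.30 for members, 0.16 for the companion list and 0.05 for all tested genes.

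The median of the members' signed differences was smaller in size within a group than between groups. Single members such as RPA3 and POLE differed more within shNC than between groups. The median difference of the members in log2(FPKM + 1) was 0.33 for each shWDR43 library against shNC replicate 1, and 0.24 and 0.25 for shWDR43 replicates 1 and 2 against shNC replicate 2. Over all tested genes it was 0.04 for each shWDR43 library against shNC replicate 1 and 0.06 for each against shNC replicate 2. Between replicates 1 and 2 the members' median was -0.02 in shWDR43 cells and -0.08 in shNC cells, beside -0.004 and 0.01 over all tested genes. Of the 46 members, 31 were lower in shNC replicate 1 than in shNC replicate 2. The number called moved with the library left out, for the members as for all genes. It was 5, or 10.9%, without shWDR43 replicate 1, where 1.87% of all tested genes were called higher. Without shWDR43 replicate 2 it was 4, or 8.70%, beside 2.37%. Without shNC replicate 1 it was 17, or 37.0%, beside 9.46%, and without shNC replicate 2 it was 25, or 54.3%, with 1 lower, beside 13.8%. Each of these fits has 1 library in a group and assumes that it varies like the pair left in the other group. The SD over genes of the log2 difference between replicates was 0.18 in shWDR43 cells and 0.25 in shNC cells.

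E2F factors bind a short motif near the start site of their target genes. Promoter windows of the members were searched for it because 42 of the 46 had a positive difference. The windows run from 250 bases before the RefSeq start site to 50 bases from it (GRCh38.p14), and the letters searched were TTTCCCGC, TTTCGCGC, TTTGCCGC and TTTGGCGC on both strands, with overlapping matches counted separately. A window was at hand for 39 members, in 49 windows. At least 1 match was found for 21 of the 39 members, or 53.8%, beside 6.79% of 9852 tested genes and 3.99% of all 27305 genes with a window. Counted by window, since some genes have several, the shares were 44.9% for members, 19.7% for the companion list, 4.98% for tested genes and 3.31% for all 35116 windows. Many members are known E2F targets, so a share above that of all genes was to be anticipated from the choice of list. It does not bear on the difference between the hairpins. The 29 matches began at positions -187 to 8 from the start site, 25 of them before it. Stretches of the 6 members that were called higher and hold a match are shown with the match in capitals, each 5′ to 3′ on the strand of the gene.
MCM6: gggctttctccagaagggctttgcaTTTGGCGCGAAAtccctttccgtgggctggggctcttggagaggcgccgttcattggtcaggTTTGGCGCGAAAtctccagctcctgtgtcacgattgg
PCNA: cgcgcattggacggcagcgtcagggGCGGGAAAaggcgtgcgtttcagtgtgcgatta
UHRF1: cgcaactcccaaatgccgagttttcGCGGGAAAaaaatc
CDC25A: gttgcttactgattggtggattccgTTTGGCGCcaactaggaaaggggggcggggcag
MCM2: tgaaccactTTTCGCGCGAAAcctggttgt
E2F1: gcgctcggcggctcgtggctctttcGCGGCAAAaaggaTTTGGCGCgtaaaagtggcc
They lie, in GRCh38.p14, at chr2:135876497-135876620, minus strand (MCM6), chr20:5126649-5126706, minus strand (PCNA), chr19:4909462-4909500, plus strand (UHRF1), chr3:48188429-48188486, minus strand (CDC25A), chr3:127598404-127598433, plus strand (MCM2) and chr20:33686386-33686443, minus strand (E2F1). MCM6 holds the same 12 letters at a pair of places, each a match on both strands that overlap, and MCM2 holds such an overlapping pair just after its start site. PCNA and UHRF1 each show a single match on the reverse strand in the stretch printed, CDC25A a single match on the forward strand, and E2F1 a match on each strand.

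The difference between the hairpins was then set beside the presence of these letters. The median log2 difference was 0.32 for the 21 members with a match, of which 6 were called higher. It was 0.26 for the 18 members with a window and no match, of which 2 were called higher, CCNE1 and FEN1. The 7 members with no window had a median of 0.34, and 2 were called higher, MCM4 and CCNE2. Over all genes called higher in shWDR43 cells, 7.78% of the 501 with a window held a match. Among genes called lower it was 8.09% of 136, and both shares are close to the 6.79% of all tested genes. A match is only a run of letters, and its absence says nothing of the factor.

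**Figure D3:**
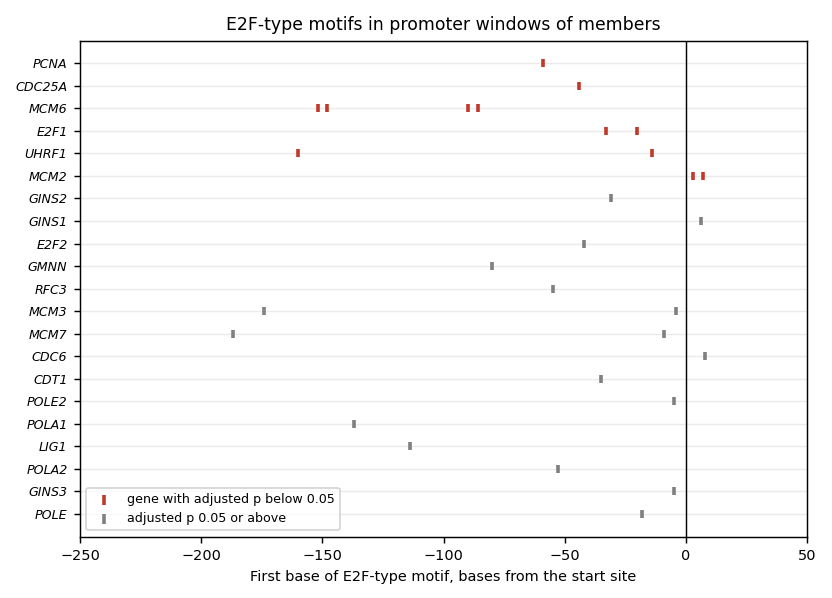
Position of the first base of each E2F-type match in the promoter windows of the 21 members that hold one, in bases from the start site, with genes ordered from the highest log2 difference at the top. Matches of called and uncalled genes lie in the same range, and 25 of 29 lie before the start site.

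The regulators of the G1/S step had the highest median log2 difference of the role groups, 0.61. Of these 5 genes 4 were called higher with all libraries, beside 4.79% of all tested genes. Fewer of the 5 were called with either shWDR43 library left out, as over all tested genes. CCNE1 (chromosome 19, 29811898 to 29824308, plus strand, GENCODE release 29 on GRCh38), the cyclin E1 gene, was at 11.96 and 11.9 FPKM in shWDR43 cells, against 5.75 and 5.24 FPKM in shNC cells. Replicates of a group were close together and the groups were far apart, with a ratio of means of 2.17 and a log2 difference of 1.00 ± 0.09 (SE, adjusted p = 0.00537). CCNE2 (chromosome 8, 94879770 to 94896678, minus strand), the cyclin E2 gene, was at 3.31 and 3.82 FPKM in shWDR43 cells, against 1.97 and 1.81 FPKM in shNC cells, with a log2 difference of 0.66 ± 0.12 (adjusted p = 0.0314). CDC25A (chromosome 3, 48157146 to 48188402, minus strand), the phosphatase that removes inhibitory phosphates from CDK2, was at 3.201 and 3.47 FPKM in shWDR43 cells, against 1.88 and 1.797 FPKM in shNC cells. Its groups did not overlap (log2 difference 0.61 ± 0.12, adjusted p = 0.0326). CCNE2 and CDC25A were low, so that their ratios of means, 1.89 and 1.81, are larger than the log2(FPKM + 1) scale shows.

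E2F1 (chromosome 20, 33675683 to 33686404, minus strand), which encodes a transcription factor that activates S-phase genes, was at 4.16 and 4.32 FPKM in shWDR43 cells, against 2.803 and 2.48 FPKM in shNC cells. The groups did not overlap and the log2 difference was 0.53 ± 0.11 (adjusted p = 0.0393), but the call was lost with either shWDR43 library left out, under either rescaling and with a replicate block. E2F2, a second activator E2F gene, was at 2.57 and 2.81 FPKM in shWDR43 cells, against 1.85 and 1.88 FPKM in shNC cells, with groups apart but no call (log2 difference 0.36, adjusted p = 0.106). Within the group the order of levels was CCNE1, E2F1, CCNE2, CDC25A, E2F2 in all libraries but shNC replicate 2, where E2F2 stood above CCNE2 and CDC25A. In the same libraries CDKN1A, the p21 gene, was at 239 and 229 FPKM in shWDR43 cells, against 73.8 and 75.7 FPKM in shNC cells (log2 difference 1.63 ± 0.09, adjusted p = 0.000865).

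**Figure D4:**
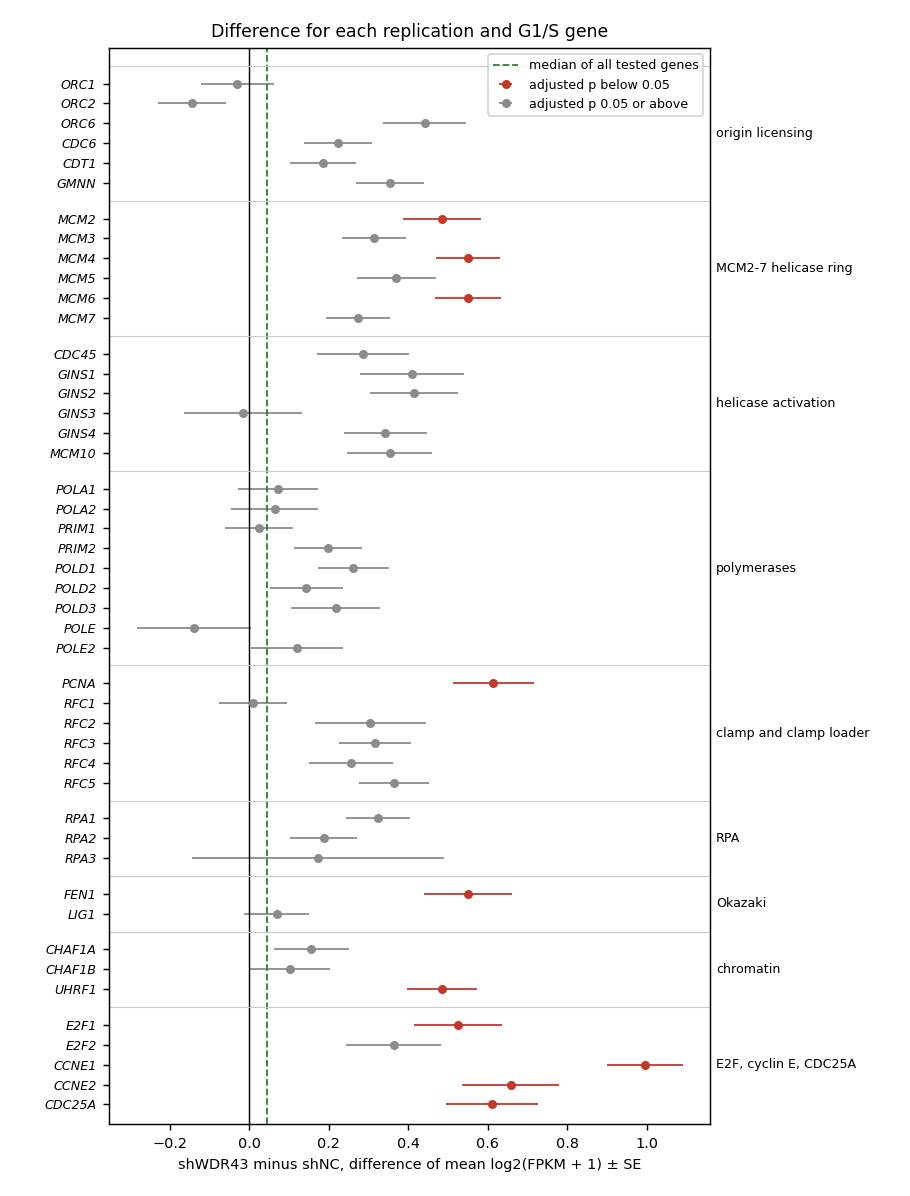
Difference of mean log2(FPKM + 1) between shWDR43 and shNC cells for each of the 46 genes, with its SE from limma, grouped by role. Red points are the 10 genes called higher, the dashed line is the median of all tested genes at 0.05, and ORC1, ORC2, GINS3 and POLE lie below 0.

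Of the 6 origin recognition and licensing genes 0 were called with all libraries, beside 4.79% of all tested genes called higher. Their median log2 difference was 0.20, or 0.15 without shNC replicate 1 and 0.26 without shNC replicate 2. GMNN, the geminin gene, and ORC6, a subunit of the origin recognition complex, were nearest to a call. ORC6 was at 13.4 and 12.5 FPKM in shWDR43 cells, against 8.53 and 10.1 FPKM in shNC cells, with both shWDR43 values above both shNC values (log2 difference 0.44 ± 0.10, adjusted p = 0.0514). GMNN was at 22.1 and 20.4 FPKM in shWDR43 cells, against 16.2 and 16.6 FPKM in shNC cells (log2 difference 0.35, adjusted p = 0.0542). The licensing factors that load the helicase had smaller differences, 0.22 for CDC6 and 0.18 for CDT1, with adjusted p = 0.151 and 0.208. The origin-binding subunits ORC1 and ORC2 had negative differences of -0.03 and -0.14, with adjusted p = 0.868 and 0.327. The signs of the ORC subunits in the list thus differed, but neither negative difference passed the test and the ORC1 groups overlapped. ORC2 was at 13.04 and 12.5 FPKM in shWDR43 cells, against 13.96 and 14.5 FPKM in shNC cells.

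All 6 genes of the MCM2-7 helicase ring had positive differences, from 0.27 for MCM7 to 0.55 for MCM4 and MCM6. In each of them both shWDR43 values lay above both shNC values, beside 35.8% of all tested genes. MCM2, MCM4 and MCM6 were called higher, beside 4.79% of all tested genes. The group's median of 0.43 was 0.41 and 0.47 without shWDR43 replicates 1 and 2, and 0.35 and 0.46 without shNC replicates 1 and 2. Fewer of the 6 were called with either shWDR43 library left out and more with either shNC library left out, as over all tested genes. MCM4 (chromosome 8, 47960185 to 47978160, plus strand) was at 43.99 and 42.9 FPKM in shWDR43 cells, against 30.4 and 28.3 FPKM in shNC cells, with a ratio of means of 1.48 (adjusted p = 0.0195). MCM6 (chromosome 2, 135839626 to 135876426, minus strand) was at 20.5 and 21.4 FPKM in shWDR43 cells, against 14.1 and 13.8 FPKM in shNC cells, with a ratio of means of 1.497 (adjusted p = 0.0204). In both genes the shNC replicates were close together. MCM2 (chromosome 3, 127598223 to 127622436, plus strand) was at 23.9 and 23.7 FPKM in shWDR43 cells, against 15.4 and 18.1 FPKM in shNC cells, so its shNC libraries were farther apart (log2 difference 0.48 ± 0.10, adjusted p = 0.0351), and its call was lost with either shWDR43 library left out and under either rescaling. MCM3, MCM5 and MCM7 had adjusted p values of 0.0624, 0.0669 and 0.0828, with log2 differences of 0.31, 0.37 and 0.27. The 6 proteins form a ring with a single copy of each, but their transcript levels were unequal. In FPKM, MCM7 was the highest in every library, at 77.4 and 79.4 FPKM in shWDR43 cells, against 63.2 and 66.2 FPKM in shNC cells, and MCM5 the lowest, at 15.4 and 13.6 FPKM in shWDR43 cells, against 10.6 and 11.4 FPKM in shNC cells. The ratio of highest to lowest ranged from 5.02 to 5.99 over the libraries, and MCM4, MCM3, MCM2 and MCM6 followed MCM7 in that order in all libraries but shNC replicate 2, where MCM3 was above MCM4.

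Of the genes that switch the helicase on, 5 of 6 had positive log2 differences of 0.29 to 0.41, and 0 were called, with a median of 0.35. Without shNC replicate 1, 2 were called, and 3 without shNC replicate 2. GINS2, a subunit of the GINS complex that joins CDC45 and MCM2-7, was at 6.57 and 6.88 FPKM in shWDR43 cells, against 4.42 and 5.204 FPKM in shNC cells, and had the smallest p of the group (adjusted p = 0.0657). GINS1 and GINS4, of the same complex, had differences of 0.41 and 0.34, and MCM10, which helps the helicase to start, had 0.35. CDC45 was at 10.6 and 11.5 FPKM in shWDR43 cells, against 7.97 and 9.86 FPKM in shNC cells, and its shNC libraries differed by more than its shWDR43 libraries did. GINS3 went apart from the other GINS genes, at 3.63 and 2.83 FPKM in shWDR43 cells, against 2.85 and 3.704 FPKM in shNC cells, with overlapping groups and a difference of -0.02. The levels of these 6 genes ran from 2.83 to 11.5 FPKM. Their median per library was 5.69 to 8.01 FPKM, beside 7.10 to 7.54 FPKM for all tested genes.

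Of the 9 DNA polymerase and primase genes 0 were called higher with all libraries or with any library left out. Their median log2 difference of 0.12 was the lowest of the role groups with all libraries, but not without shNC replicate 1, where it was 0.138 beside 0.134 for RPA, nor without shWDR43 replicate 1, where it was 0.1336 beside 0.1332 for the chromatin genes. Both shWDR43 values lay above both shNC values for 4 of them, or 44.4%, beside 35.8% of all tested genes. The 4 were PRIM2, POLD1, POLD2 and POLD3. POLD1, the catalytic subunit of the lagging-strand polymerase delta, had the smallest p and was at 12.2 and 11.5 FPKM in shWDR43 cells, against 9.67 and 9.78 FPKM in shNC cells (log2 difference 0.26 ± 0.09, adjusted p = 0.115). Its accessory subunits POLD2 and POLD3 had differences of 0.14 and 0.22. The subunits of polymerase alpha and primase, which lay down primers, had 0.07 for POLA1, 0.06 for POLA2, 0.02 for PRIM1 and 0.20 for PRIM2. POLE, the catalytic subunit of the leading-strand polymerase epsilon, was at 14.9 and 15.6 FPKM in shWDR43 cells, against 20.003 and 14.3 FPKM in shNC cells. Its value in shNC replicate 1 stood above the other 3, and its log2 difference of -0.14 was -0.37 without shNC replicate 2, where shNC replicate 1 alone stood for shNC and it was called lower, and 0.09 without shNC replicate 1. POLE2, the second subunit, had 0.12. Levels ran from POLD2 at 43.3 FPKM or more in every library down to POLA2 and POLD3 at 4.45 FPKM or less.

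PCNA (chromosome 20, 5114953 to 5126626, minus strand), the sliding clamp that holds polymerases on DNA, was the most abundant member in shWDR43 cells, at 94.4 and 93.0 FPKM, and stood at 55.7 and 66.5 FPKM in shNC cells. Its ratio of means was 1.53 and its log2 difference 0.61 ± 0.10 (adjusted p = 0.0251). In shNC replicate 1 MCM7 was above it. Its loader genes did not pass the test with all libraries. The median log2 difference of the clamp and loader genes was 0.31, or 0.20 without shNC replicate 1 and 0.42 without shNC replicate 2. RFC2, RFC3, RFC4 and RFC5 had differences of 0.30, 0.32, 0.26 and 0.36, with RFC5 nearest to a call at 28.1 and 28.6 FPKM in shWDR43 cells, against 20.6 and 23.1 FPKM in shNC cells (adjusted p = 0.0539). RFC1, the large subunit of the loader, was at 35.9 and 37.2 FPKM in shWDR43 cells, against 34.5 and 38.2 FPKM in shNC cells, with overlapping groups and a difference of 0.01, the smallest in size of the 46 (SE 0.09, adjusted p = 0.957).

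Replication protein A coats single-stranded DNA at the fork, and 0 of its 3 genes were called with all libraries. RPA1, which encodes the large subunit, was at 26.8 and 27.99 FPKM in shWDR43 cells, against 21.3 and 22.1 FPKM in shNC cells, with groups apart (log2 difference 0.32 ± 0.08, adjusted p = 0.0581). RPA2 had a difference of 0.19. RPA3 differed more within shNC than between groups, at 7.34 and 8.55 FPKM in shWDR43 cells, against 4.56 and 10.3 FPKM in shNC cells, and its log2 difference of 0.17 became 0.68 without shNC replicate 2 and -0.34 without shNC replicate 1.

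FEN1 and LIG1 encode the flap nuclease and the ligase that finish Okazaki fragments. FEN1 (chromosome 11, 61792637 to 61797244, plus strand) was at 24.05 and 21.4 FPKM in shWDR43 cells, against 13.9 and 16.6 FPKM in shNC cells and was called higher (log2 difference 0.55 ± 0.11, adjusted p = 0.0347). LIG1 was at 18.3 and 18.2 FPKM in shWDR43 cells, against 17.6 and 17.2 FPKM in shNC cells, a difference of 0.07 ± 0.08 (adjusted p = 0.635). The order of the pair by level was FEN1 above LIG1 in both shWDR43 libraries and LIG1 above FEN1 in both shNC libraries. UHRF1 (chromosome 19, 4903080 to 4962154, plus strand), which recruits the maintenance DNA methyltransferase to newly copied DNA, was at 18.2 and 19.4 FPKM in shWDR43 cells, against 12.8 and 13.5 FPKM in shNC cells (log2 difference 0.49 ± 0.09, adjusted p = 0.0301). The chromatin assembly factor genes CHAF1A and CHAF1B, whose products place histones behind the fork, had differences of 0.16 and 0.10 and were not called (adjusted p = 0.332 and 0.5703).

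Other genes of replication and the G1/S step, a list of 60 chosen from general knowledge of the pathway, is set beside the members as a description. Of these 60, 6 were called higher and 0 lower, or 10.0% beside the 4.79% of all tested genes, and 41 had a positive difference, which is 68.3% beside 58.0% of all tested genes. Their median was 0.16, or 0.0914 without shNC replicate 1. Fewer of the 60 were called higher with either shWDR43 library left out and more with either shNC library left out, as over all tested genes. Among the 6 called with all libraries were DONSON (0.55, adjusted p = 0.0259), a helicase activation factor, and TK1 (0.46, adjusted p = 0.0301), the thymidine kinase of nucleotide salvage. So were E2F7 (0.47, adjusted p = 0.0402), an E2F repressor, ASF1B (0.45, adjusted p = 0.0492), a histone chaperone, and DTL (0.38, adjusted p = 0.0495), the receptor of the ligase that degrades CDT1. ASF1B and DTL were close to the threshold, and lost the call under either rescaling and with robust settings off. TK1 was at 86.4 and 85.1 FPKM in shWDR43 cells, against 59.7 and 64.5 FPKM in shNC cells, with groups apart. CDK2, the kinase that cyclin E activates, was at 36.8 and 36.6 FPKM in shWDR43 cells, against 29.1 and 29.9 FPKM in shNC cells (log2 difference 0.31 ± 0.08, adjusted p = 0.0581), and CDKN1B, the p27 inhibitor gene, was at 16.2 and 17.1 FPKM in shWDR43 cells, against 17.997 and 19.95 FPKM in shNC cells (log2 difference -0.17 ± 0.09, adjusted p = 0.267). Neither passed the test, although the groups were apart in both. In the list 19 genes had a negative difference. Both shWDR43 values lay below both shNC values for 9 of the 60, or 15.0%, beside 21.5% of all tested genes. Both lay above both shNC values for 31, or 51.7%, beside 35.8% of all tested genes. The 4 lowest, named after their values were seen, were TOP2A (-0.25), the topoisomerase II alpha gene, DBF4 (-0.25), the activator of the CDC7 kinase, CKS1B (-0.22), a subunit of cyclin-dependent kinases, and NASP (-0.19), a histone chaperone, with adjusted p = 0.0986, 0.111, 0.2099 and 0.208.

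CCNE1 and MCM4 were called higher under 11 of the 12 alternatives tried, and lost the call only without a filter on low values. There 0 of the 46 members and 15 of 26938 genes were called higher. MCM6 and CCNE2 also lost it without shWDR43 replicate 2, PCNA under upper-quartile scaling, FEN1 without shWDR43 replicate 1 and under either rescaling, and UHRF1 and CDC25A with either shWDR43 library left out and under upper-quartile scaling. Upper-quartile scaling left 4 members called, CCNE1, CCNE2, MCM4 and MCM6, and turned the signs of PRIM1 and RFC1. Over all tested genes that scaling gave 191 higher and 180 lower in shWDR43 cells, beside 637 and 196 with the deposited scaling, and median-ratio scaling gave 311 and 141. Among members, 13 overlap another protein-coding gene in the annotation, such as TPRA1 for MCM2, FADS2 and TMEM258 for FEN1 and INTS8 and NDUFAF6 for CCNE2. Whether reads were counted by strand is not stated in the labels, so their levels are uncertain to that extent.

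**Figure D5:**
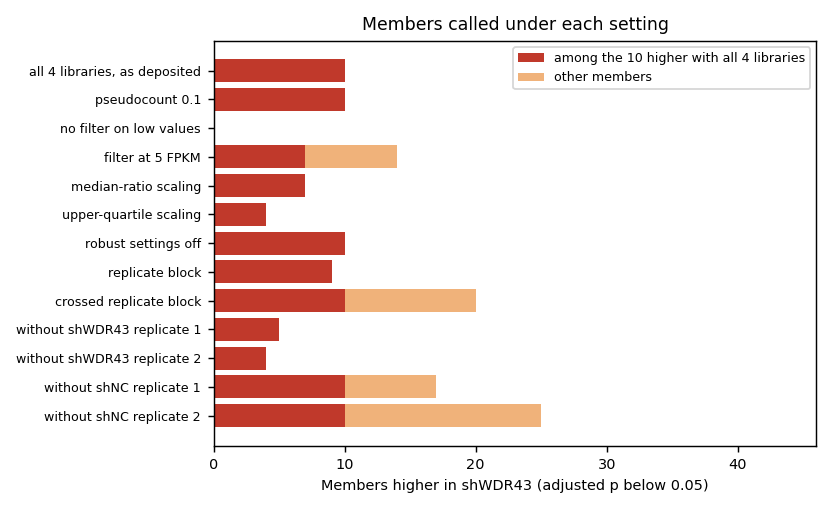
Number of the 46 genes called higher in shWDR43 cells (limma, adjusted p below 0.05) with all 4 libraries and under each of 12 alternatives, with the 10 genes of the first bar in red and other members in orange. The count lies between 0 and 25, and all 10 are among those called with either shNC library left out.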

How the data were processed

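Bulk RNA sequencing of 4 HCT116 libraries was used, 2 shWDR43 and 2 shNC, made from total RNA with an Illumina TruSeq kit per the labels' protocols. Per the submitters' processing notes, the tools were edgeR, RSEM, HISAT2, FastQC, Trimmomatic and CASAVA 1.8, on GRCh38, in no stated role or order, and no annotation release is named there. The values deposited by the authors were read as FPKM, inferred from the values, and a partial table of TPM could look the same. One blank entry per file was left out. Low values showed no whole-read steps (at most 1.01% of genes in a 1% window of ratios), so depth is unknown.

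Genes that reached 1 FPKM in 2 or more libraries were tested on log2(FPKM + 1) in limma 3.58.1 (R 4.3.3), with group as the only term, trended and robust moderation, two-sided p and Benjamini-Hochberg adjustment over 13303 genes, with 2 residual degrees of freedom. Errors are SE from limma. An exact permutation test of 1 gene could not go below p = 0.333. The members, lists, named genes and motif letters were chosen with earlier results of these data known. Every member could be named. Values by library are given for called members, the smallest p of a role group with no call, and further members for comparison, chosen after their values were seen. Of the companion list, called genes, CDK2, CDKN1B and the 4 lowest are named, except 1 called gene that is not reported here. Symbols came from a table of gene identifiers, positions from GENCODE release 29 and promoter windows from RefSeq. Alternatives were another pseudocount, other filters and scalings, moderation without robust settings, each library left out in turn and a replicate block. Python 3.11.15 with pandas 2.3.3 and matplotlib 3.10.9 made the tables and figures.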

Additional observations from a re-analysis of the deposited data

How the results depend on the processing

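Of members, the number higher was 10 with a pseudocount of 0.1 or robust settings off, 7 under median-ratio scaling and 4 under upper-quartile scaling. At 5 FPKM it was 14 of 38 tested, or 36.8%, beside 9.34% of 8428 genes. These 14 held 7 of the 10 called at the 1 FPKM filter. E2F1, CCNE2 and CDC25A were below 5 FPKM and not tested there. With no filter the number was 0. There limma gave a smallest adjusted p of 0.0545 among members over 26938 genes, and 25 members had an unadjusted p below 0.05. The count over all genes at that unadjusted p is not given for this setting. At the 1 FPKM filter such p values were common, in 28 members, all higher, and in 3512 of 13303 tested genes, 2364 of them higher. Leaving out a library gave 4 to 25 higher and 0 to 1 lower. With no filter, 15 genes were higher and 2 lower over all genes tested, and 0 of the companion list. All tested genes had 311 higher under median-ratio scaling, 191 under upper-quartile scaling, and 245 to 1802 higher and 132 to 784 lower with a library left out. The companion list had 2 higher under either scaling and 0 to 19 higher and 0 to 3 lower with a library left out.

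The labels share replicate numbers between groups, but the deviations of same-numbered libraries correlated weakly and negatively (r = -0.15 across 13303 genes). With the replicate block 9 members, 2 companion genes and 413 of all tested genes were higher. With the pairing crossed, an alternative chosen after seeing the data, 20 members and 11 companion genes were higher, with 1375 higher and 579 lower over all tested genes.

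Signs turned in 7 members. PRIM1 was at -0.0432 under upper-quartile scaling and from -0.0309 to 0.0808 with a library left out, RFC1 at -0.0135 under median-ratio scaling, -0.0596 under upper-quartile scaling and from -0.0615 to 0.0808, ORC1 from -0.0628 to 0.00322, GINS3 from -0.16 to 0.13, POLE from -0.367 to 0.0887, POLE2 from -0.00501 to 0.25 and RPA3 from -0.34 to 0.68. The cause was not tested. Depth is unknown, and with 2 libraries a group small differences cannot be told from replicate spread.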
